A study of Mus musculus with 30 samples.

Results

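Keratin genes were followed through 4 lists of H3K27ac peaks from mouse lung adenocarcinoma cells. They were taken as the protein-coding genes of the mouse annotation whose symbol is Krt followed only by digits, which gave 49 of 21951 protein-coding genes. Of these, 25 lie in a cluster on chromosome 11, which holds most type I (acidic) keratins, and 24 in a cluster on chromosome 15, which holds the type II (basic) keratins and the type I gene Krt18. Krt7, Krt8, Krt18 and Krt19, keratins of simple epithelium, form a group of 4, and the other 45 serve mainly stratified epithelium, hair and nail. Krt20 and Krt23, keratins of simple, gut or gland epithelium, are counted among the 45. Krt6a, Krt6b, Krt33a and Krt33b have a letter in the symbol and were not members.

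Keratins are the intermediate filament proteins of epithelial cells. A type I keratin pairs with a type II keratin, and the pair depends on the tissue. Single-layered epithelia such as that of the lung alveolus and of adenocarcinoma use mainly Krt8 with Krt18, joined by Krt7 and Krt19. Basal cells of stratified epithelium use Krt5 with Krt14, and the cells above them in skin use Krt1 with Krt10. Acetylation of lysine 27 on histone H3 (H3K27ac) marks active promoters and enhancers, so a peak of the mark at a start site is a record of chromatin state and not a level of RNA.

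CK1750 and Tnm2, both cultured mouse lung adenocarcinoma cell lines, were grown either with DMSO, the solvent, or with UNC0638 at 1 µM, an inhibitor of the H3K9 methyltransferases G9a and Glp. The H3K27ac samples numbered 3 for CK1750 with DMSO and 2 for each of CK1750 with UNC0638, Tnm2 with DMSO and Tnm2 with UNC0638, out of 30 samples in 12 groups. By their labels, the 3 CK1750 samples with DMSO cover 2 replicate numbers, replicate 1 having been sequenced in 2 runs, both CK1750 samples with UNC0638 carry replicate number 2, and each Tnm2 group covers 2 numbers. The CK1750 list with UNC0638 may therefore rest on a single replicate, and the methods of the study speak of more replicates than the labels number. Each group was deposited as 1 merged peak list, so no spread between replicates exists and no difference between groups was tested. The study treats CK1750 as a line resembling tumor-propagating cells, each line stands for a single culture lineage, and the labels give no time in UNC0638, for which the study's methods give 1 general duration for cell culture experiments.

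The lists held 18794 (Tnm2 with UNC0638) to 30641 peaks (Tnm2 with DMSO), and their depth is unknown. Every peak has a score, which is 10 times the negative log10 of its P value and begins at 50, the cutoff, and many scores pile up at 3100. Because scores grow with depth, peaks were ranked within their own list, as the percentage of that list's peaks with a lower score (its percentile). Where a score of at least 100 is used as an alternative, the same score can stand for different strengths in different lists. As a check of the cell type, Cdh1 (E-cadherin) and the lung markers Nkx2-1 and Sftpc had a start-site peak in all 4 lists, while Epcam, Cldn4, Esrp1 and Napsa had one in none, Cldn7 one in CK1750 with DMSO only and Sftpb one in Tnm2 with UNC0638 only. The mesenchymal markers Vim, Zeb1, Zeb2 and Fn1 had one in all 4 lists, and the leukocyte markers (4 genes) in none. Of the squamous or basal markers, Sox2 had a start-site peak in both CK1750 lists and in neither Tnm2 list, and Trp63 and Serpinb5 had one in none. Of the endothelial markers, Pecam1 had one in both Tnm2 lists, and Cdh5 and Kdr in none. The part that mixed cell types could have in the results below was not tested.

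The sequences before the start sites of 6 keratins are shown to set genes with a peak over the start in at least 1 list (Krt7, Krt8 and Krt18) beside starts that no peak covered (Krt5, Krt14 and the most upstream start of Krt10). They come from RefSeq (build GRCm38.p6) and run 5′ to 3′ on the gene's strand. Each stops before the RefSeq start, or before an annotated protein-coding start that falls within the stretch. The Krt7 and Krt14 stretches lie downstream of the most upstream protein-coding starts of these genes, at positions 101411103 and 100207548. Capitals mark the GC box (GGGCGG or its reverse complement CCGCCC) and the TATA box (TATAAA or its reverse complement TTTATA). The places are chr15:101412153-101412401 (plus strand) for Krt7, chr15:102004483-102004592 (minus strand) for Krt8, chr15:102027966-102028179 (plus strand) for Krt18, chr11:99389365-99389614 (minus strand) for Krt10, chr15:101712906-101713155 (minus strand) for Krt5 and chr11:100206031-100206280 (minus strand) for Krt14.
Krt7: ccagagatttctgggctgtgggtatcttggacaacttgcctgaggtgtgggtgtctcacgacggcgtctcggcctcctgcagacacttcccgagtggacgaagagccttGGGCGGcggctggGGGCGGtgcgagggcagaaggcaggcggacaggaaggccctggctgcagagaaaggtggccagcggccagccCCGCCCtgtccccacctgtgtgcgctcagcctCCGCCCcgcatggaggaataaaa
Krt8: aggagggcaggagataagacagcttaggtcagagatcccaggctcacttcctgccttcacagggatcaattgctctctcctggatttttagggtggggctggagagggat
Krt18: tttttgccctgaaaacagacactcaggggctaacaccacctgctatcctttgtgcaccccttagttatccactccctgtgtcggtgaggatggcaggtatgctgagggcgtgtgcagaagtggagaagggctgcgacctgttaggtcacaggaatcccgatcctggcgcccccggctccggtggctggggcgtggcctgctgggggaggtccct
Krt10: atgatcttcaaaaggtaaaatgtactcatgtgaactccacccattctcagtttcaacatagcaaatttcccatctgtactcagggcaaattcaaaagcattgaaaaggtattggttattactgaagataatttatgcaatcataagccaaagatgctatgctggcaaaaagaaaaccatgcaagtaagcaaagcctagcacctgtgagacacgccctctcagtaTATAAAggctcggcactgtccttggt
Krt5: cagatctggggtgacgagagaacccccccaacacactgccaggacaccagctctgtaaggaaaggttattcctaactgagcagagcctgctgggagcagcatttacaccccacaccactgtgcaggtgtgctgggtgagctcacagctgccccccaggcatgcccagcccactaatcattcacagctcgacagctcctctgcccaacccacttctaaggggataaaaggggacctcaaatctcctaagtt
Krt14: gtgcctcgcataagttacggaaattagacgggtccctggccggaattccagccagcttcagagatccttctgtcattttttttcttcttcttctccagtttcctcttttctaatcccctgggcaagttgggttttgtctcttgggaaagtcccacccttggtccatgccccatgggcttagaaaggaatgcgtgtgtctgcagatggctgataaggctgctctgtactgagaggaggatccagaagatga

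RefSeq promoters of 250 bases before the start were matched for 35 of the 49 keratins. Krt7 had 4 GC boxes, at 141, 128, 56 and 24 bases before the start, and the highest GC content of the matched keratins (66%, with 16 CpG). Krt8 (58.0% GC) and Krt18 (60.4% GC, 12 CpG) held neither box in these letters. Their RefSeq starts lie 140 and 36 bases downstream of the annotated start, so their 250 bases reach past it into the gene. A TATA box stood in 0 of the 3 matched simple keratins and in 16 of the 32 other keratins, beside 13% of all 27025 promoters. A GC box stood in 1 of the 3 and 1 of the 32, beside 32.9% of all promoters. The AP-1 motif TGANTCA, which reads the same on both strands, stood in 1 keratin (Krt13), beside 6.87% of all promoters. Median GC content was 47.4% for the other keratins and 52.0% for all promoters. A match to these letters is a description of the sequence, not a binding site.

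Few keratins had H3K27ac at a start site. A peak overlapped 2.5 kb on either side of an annotated start in 9 of 49 keratins in CK1750 with DMSO (18.4%, Wilson 95% interval 9.98 to 31.4%) and in 9 with UNC0638 (18.4%). In Tnm2 it did so in 10 with DMSO (20.4%, 11.5 to 33.6%) and in 11 with UNC0638 (22.4%, 13 to 35.9%). Among all protein-coding genes the shares were 50%, 49.1%, 49.4% and 41.3% in the same order. The intervals cover counting error only, and neighbouring genes can share a peak. Peaks stood at the start of the same 8 keratins in all 4 lists: Krt8, Krt18, Krt19, Krt4, Krt78, Krt79, Krt80 and Krt10. Krt7 and Krt23 had one in 3 lists and Krt84 in 1, while 38 of 49 keratins had none in any list, beside 46.0% of all protein-coding genes.

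**Figure D1:**
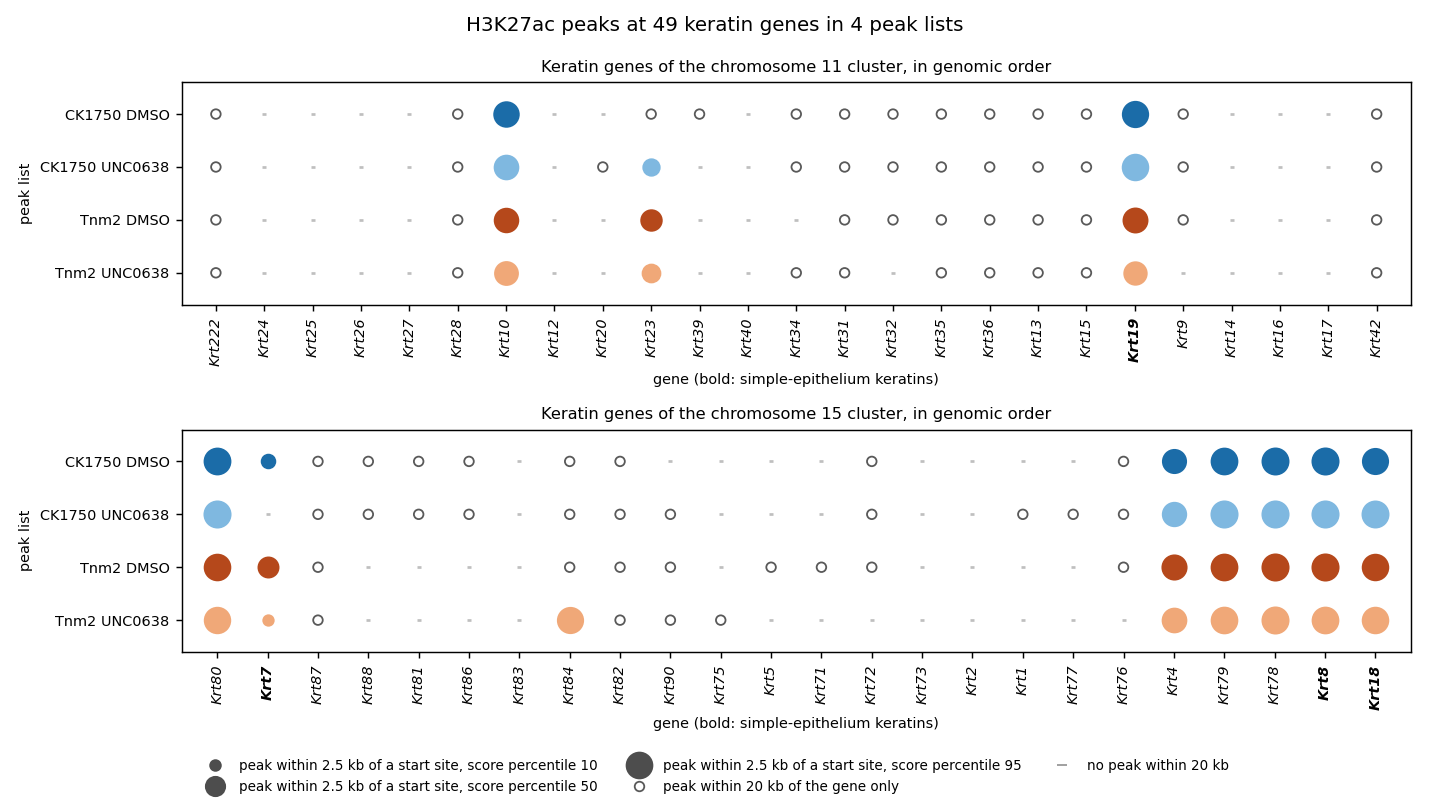
Keratin genes on the horizontal axis (chromosome 11 above, chromosome 15 below, in genomic order) against the 4 peak lists on the vertical axis. Filled circles are genes with a peak within 2.5 kb of a start site, with an area that grows with the percentile of the highest-scoring one, open circles have a peak within 20 kb only, and dashes have none. The filled circles in all 4 lists are 8 genes, of which Krt4, Krt79, Krt78, Krt8 and Krt18 stand next to each other at the end of the chromosome 15 cluster.

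The simple keratins were compared with the rest by counts. All 4 had a start-site peak in CK1750 with DMSO, Tnm2 with DMSO and Tnm2 with UNC0638, and 3 of 4 in CK1750 with UNC0638, where Krt7 had none. Among all protein-coding genes the shares were 50, 49.4, 41.3 and 49.1% in these 4 lists. In Tnm2 with UNC0638, Krt7 was counted from a peak inside the gene. With a 1 kb window 3 simple keratins remained in that list, and 2 when a peak had to cover the most upstream protein-coding start. Of the 45 other keratins, those with a start-site peak numbered 5 in CK1750 with DMSO (11.1%, interval 4.84 to 23.5%) and 6 with UNC0638 (13.3%). In Tnm2 they numbered 6 with DMSO (13.3%) and 7 with UNC0638 (15.6%, interval 7.75 to 28.8%). The simple group was named for its known tissue and not from these lists, but it has only 4 genes. Its interval runs from 51.0 to 100% where all 4 had a peak and from 30.1 to 95.4% in CK1750 with UNC0638. No test was made.

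Krt8 and Krt18, the partners of the main simple-epithelium filament, lie next to each other and are transcribed away from a shared stretch. Over the Krt8 start, CK1750 had a single peak with DMSO (7388 bp wide, score 3100, percentile 97.8) and with UNC0638 (6794 bp, score 3100, percentile 98.3). Tnm2 with DMSO also had a single one there (6279 bp, score 2106.13, percentile 98.2). In Tnm2 with UNC0638 the same stretch held 4 shorter peaks, each less than 1 kb from the next. The one over the start was 3107 bp wide (score 756.98, percentile 95.6). Thus the start was covered in all 4 lists and the unbroken width differed. The non-coding gene Gm36026 also begins under these peaks, and H3K27ac does not tell the strands apart.

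At the Krt18 start the scores were 1296.42 (percentile 90.8) in CK1750 with DMSO, 1696.2 (percentile 94.2) in CK1750 with UNC0638, 762.83 (percentile 89.2) in Tnm2 with DMSO and 348.46 (percentile 84.1) in Tnm2 with UNC0638. A second peak stood 1.01 to 1.89 kb before the start in all 4 lists, at percentiles 89.5, 97.4, 93.8 and 94.0 in that order. All 250 promoter bases of Krt8 and of Krt18 lay inside peaks in every list. Between the genes, a further stretch had a peak in all 4 lists, with percentiles 94.3, 98.3, 96.8 and 95.9. In CK1750 with UNC0638 it was part of a 6946 bp peak that also reached the side nearer to Krt8, where the other lists had separate peaks. Further out, a wide peak between Krt78 and Krt8 (chromosome 15, 101973346 to 101979211 in CK1750 with DMSO) reached percentiles of 97.8, 98.3, 99.4 and 99.3. These were as high as that over the Krt8 start in the same list or higher. In both CK1750 lists the 2 peaks were tied at 3100, the score at which many peaks pile up.

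**Figure D2:**
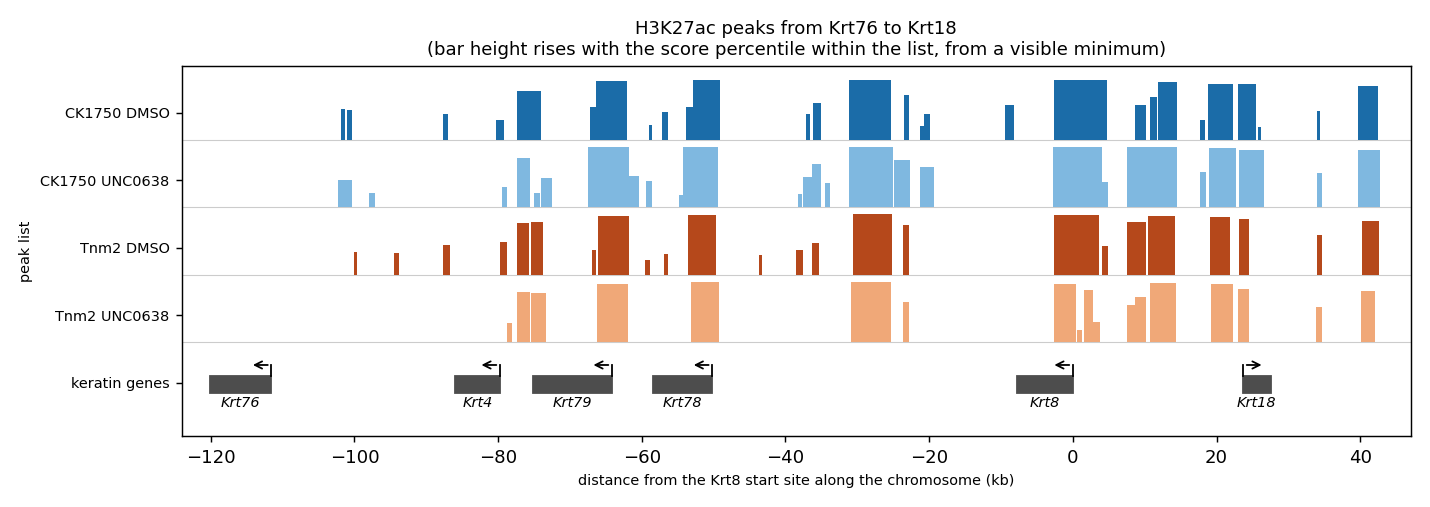
Peaks of the 4 lists (rows) from Krt76 to Krt18 against the distance in kb from the Krt8 start, with gene bodies below and arrows at the most upstream start of a protein-coding transcript. Bar height rises with the score percentile within the list. Wide high bars stand at Krt79, Krt78, Krt8 and Krt18 and at the stretch between Krt78 and Krt8 in all 4 lists, and the bar over the Krt8 start is broken into shorter ones in Tnm2 with UNC0638.

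Krt19, the short type I keratin of simple and ductal epithelium, had a start-site peak in all lists in differing forms. In CK1750 a single peak covered the most upstream protein-coding start (3428 bp, score 1417.01, percentile 91.9 with DMSO, and 3565 bp, score 1642.51, percentile 93.9 with UNC0638). In Tnm2 with DMSO this stretch held shorter peaks, of which the one over the start had a score of 351.83 (percentile 75.1). In Tnm2 with UNC0638 the 2 nearest peaks had scores of 117.43 and 85.05, and the closer one began 3 bp upstream of the start, so the start itself fell between them. The highest peak at Krt19 in both Tnm2 lists lay further upstream, at percentile 81.8 with DMSO and 70.5 with UNC0638. With UNC0638 this peak covered another annotated Krt19 start, and with DMSO it began 43 bp from one. The Tnm2 peak with UNC0638 met smaller CK1750 peaks at its near edge, at percentiles of 46.5 with DMSO and 42.2 with UNC0638. The CK1750 peak with UNC0638 ended before the Tnm2 peak with DMSO began.

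**Figure D3:**
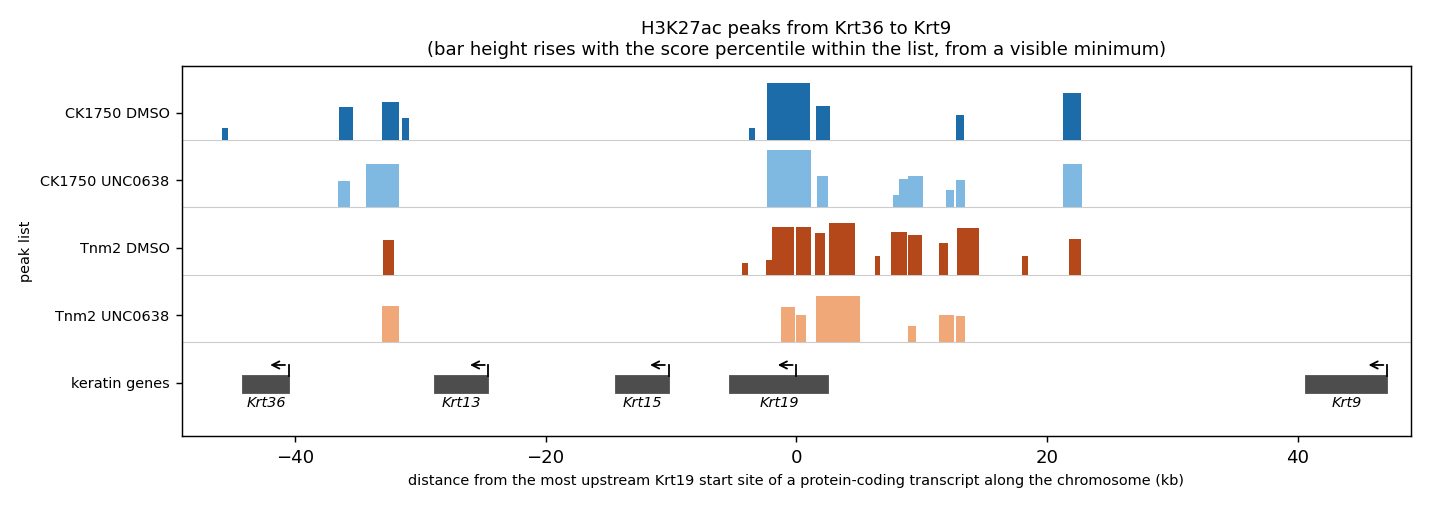
Peaks of the 4 lists (rows) from Krt36 to Krt9 against the distance in kb from the most upstream protein-coding Krt19 start. Bar height rises with the score percentile within the list. At the start CK1750 has a single tall bar with each treatment and Tnm2 several lower ones, and no list has a peak over Krt15, Krt13 or Krt9.

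Krt7, a type II keratin of ducts and of the lung, had the weakest peaks of the simple keratins. In CK1750 with DMSO a peak of score 67.93 (696 bp, percentile 21.3) covered the most upstream protein-coding start. It held 0 of the 250 promoter bases of Krt7, which lie before a later start. In CK1750 with UNC0638 the nearest peak lay 23.1 kb from the most upstream protein-coding start. In Tnm2 with DMSO there were 2 start peaks, of scores 162.0 (percentile 54.8) and 101.18 (percentile 37.8). The second covered 193 of the 250 promoter bases of Krt7 and also the start of the antisense gene Gm671. In Tnm2 with UNC0638 neither was listed, and the peak that kept Krt7 among the genes with a start-site peak was another, inside the gene, 2.20 kb from its nearest start (score 57.23, percentile 9.45). A peak over the most upstream protein-coding Krt7 start was thus listed with DMSO in both lines and with UNC0638 in neither. Only in Tnm2 with DMSO did peaks hold any of the 250 promoter bases. The percentiles of all 4 peaks were 54.8 or lower, and at a score of at least 100 a Krt7 start-site peak remained in 1 list, Tnm2 with DMSO.

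**Figure D4:**
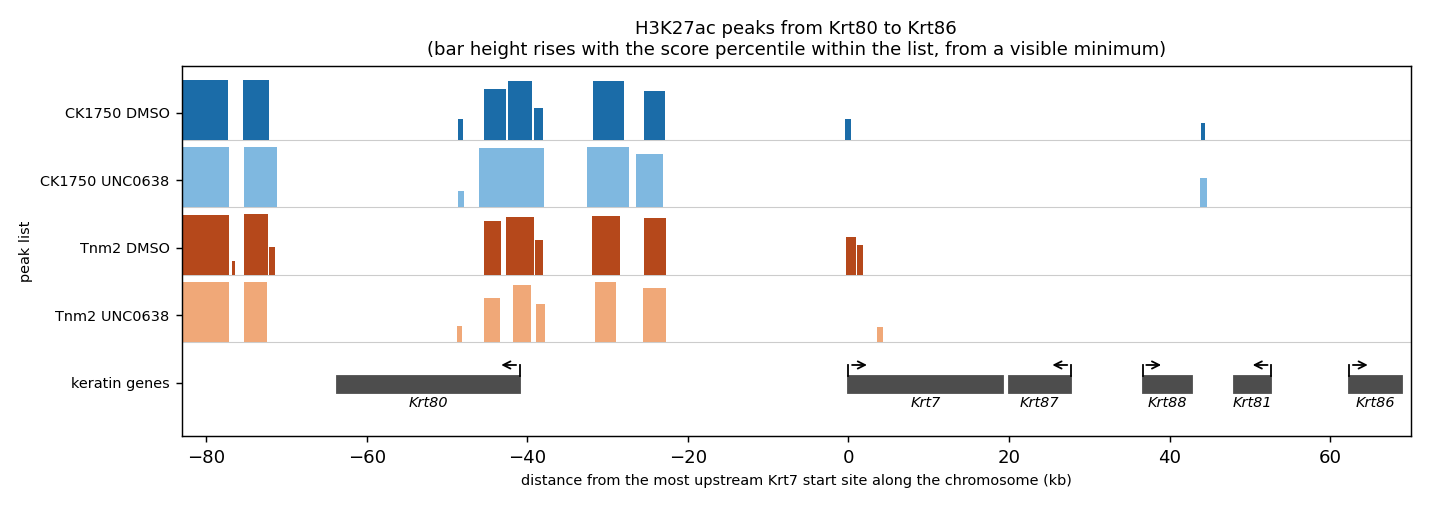
Peaks of the 4 lists (rows) from Krt80 to Krt86 against the distance in kb from the most upstream protein-coding Krt7 start. Bar height rises with the score percentile within the list. Krt80 has tall bars in and before the gene in all 4 lists, and the low bars at the Krt7 start are present with DMSO only.

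Among the other keratins, 2 with strong start-site peaks were close to Krt8. Krt78 and Krt79 are type II keratins of stratified epithelium, Krt79 also of hair canal and gland ducts. The Krt78 start was covered in all lists, at scores of 2914.05, 3100, 2140.82 and 1037.53 and percentiles of 97.4, 98.3, 98.2 and 97.9 in the order CK1750 with DMSO, CK1750 with UNC0638, Tnm2 with DMSO and Tnm2 with UNC0638. For Krt79 the peak over the most upstream start had percentiles of 95.6, 98.3, 95.8 and 95. All 250 promoter bases of both genes lay inside peaks in every list. In each list both percentiles were above that of the peak over the Krt18 start.

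Krt4, a type II keratin of mucosal epithelium, had only weak peaks by its start, with percentiles of 19.8, 21, 45.4 and 17.8. They covered the start with DMSO in both lines, and with UNC0638 the nearest peak lay 0.292 kb away in CK1750 and 1.04 kb away in Tnm2. A stronger peak (percentiles 75.8, 77.4, 83.1 and 80) lay between Krt4 and the end of Krt79 and fell in the windows of both genes, so it cannot be assigned to either.

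Krt80, a type II keratin found in many epithelia, had a peak over its most upstream start in all lists, with percentiles of 96.1, 98.1, 94.5 and 93.1. In CK1750 with UNC0638 this was a single peak of 8101 bp, where the other lists had 3 shorter ones each. A further peak stood 8.43 to 9.33 kb before the start at percentiles of 96.1, 98.3, 97.0 and 98.0. The non-coding gene Gm35853 spans this whole stretch.

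Krt10, the suprabasal type I keratin of skin, had a peak in all lists (percentiles 85.8, 79.6, 78.6 and 73.7), but it did not lie at the main promoter. It covered an annotated start inside the gene, and its edge was 2.37, 2.4, 2.53 and 2.38 kb from the most upstream start, whose 250 promoter bases, with a TATA box, lay outside peaks in every list.

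Krt23, a type I keratin of gut and gland epithelium, had a small peak over its start in CK1750 with UNC0638 (score 106.65, percentile 34.3), Tnm2 with DMSO (score 179.03, percentile 57.8) and Tnm2 with UNC0638 (score 99.49, percentile 41.7). In CK1750 with DMSO the nearest peak was 15.2 kb away. Krt84, a hair and tongue keratin, was counted in Tnm2 with UNC0638 only, from a wide peak over its 3′ end that reached to 2.02 kb from a start (percentile 91.3). The corresponding peaks ended 3.05 kb from the nearest start in Tnm2 with DMSO (percentile 94.9), 2.74 kb in CK1750 with DMSO and 2.51 kb in CK1750 with UNC0638, so this gain rests on the edge of the window.

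Most groups of keratins of stratified epithelium and hair had few start-site peaks or none. The mucosal and cornea keratins had the most, with 2 of 5 in every list (Krt4 and Krt78). None of the 3 basal keratins (Krt5, Krt14 and Krt15) had one in any list, nor did the 3 hyperproliferative or companion keratins (Krt16, Krt17 and Krt75) or the 7 inner root sheath keratins. Of 13 hair shaft keratins, 1 had one (Krt84, in Tnm2 with UNC0638), and of 5 suprabasal epidermal keratins, 1 (Krt10). Of the 2 simple, gut or gland keratins outside the group of 4, Krt23 had one in 3 lists and Krt20 in none. Krt5 had its nearest peak 4.03 kb from the start in Tnm2 with DMSO (score 85.12), and 59.4 kb away in both CK1750 lists and 114 kb in Tnm2 with UNC0638. For Krt14 the nearest peak lay 38.7 kb away in 3 lists and 48.0 kb in Tnm2 with UNC0638, and for Krt17 it lay 23.1 to 23.3 kb away. Krt1 had a single nearby peak, 5.79 kb from its start in CK1750 with UNC0638 (score 53.8, close to the cutoff).

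Within 20 kb of the gene, the keratins came closer to the background. Here 30, 32, 28 and 24 of 49 keratins had a peak (61.2, 65.3, 57.1 and 49%), beside 65.3, 63.8, 65.5 and 58.0% of all protein-coding genes in the same order of lists. Of the other 45, 26 (57.8%), 29 (64.4%), 24 (53.3%) and 20 (44.4%) did. In all, 20 keratins had such a peak in all 4 lists (40.8%, beside 55.8% of all protein-coding genes) and 12 in none (24.5%, beside 30.6%): Krt24, Krt25, Krt26, Krt27, Krt12, Krt40, Krt14, Krt16, Krt17, Krt83, Krt73 and Krt2. Peaks around start sites were also counted in windows from 1 to 50 kb. For the other keratins the share went from 11.1, 13.3, 13.3 and 11.1% at 1 kb to 88.9, 93.3, 91.1 and 77.8% at 50 kb, which was above the 72.1, 70.5, 72.1 and 66% of all protein-coding genes at that width.

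**Figure D5:**
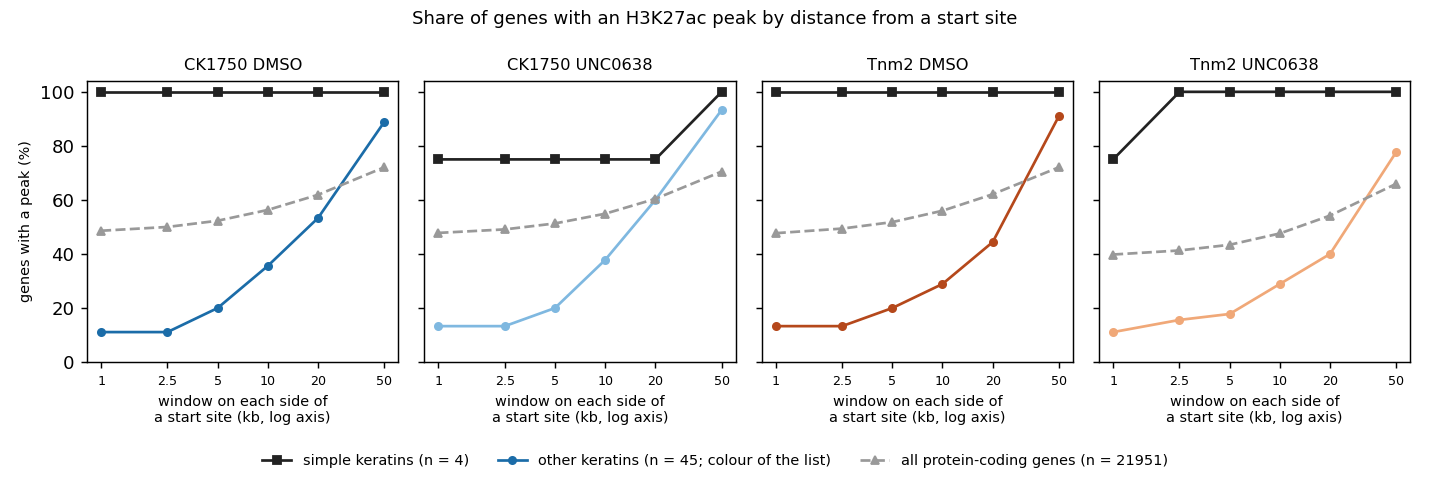
Share of genes with a peak (vertical axis, %) against the window on each side of a start site (horizontal axis, kb, log scale), in a panel for each list. Squares are the 4 simple keratins, circles the 45 other keratins and triangles all 21951 protein-coding genes. The other keratins lie below all genes from 1 to 20 kb in all 4 lists and above them at 50 kb.

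Among the 26 keratins with a peak within 20 kb but none at a start, those with the highest-ranking peaks were next to another gene. For Krt222 the peak covered the start of Smarce1, a subunit of a chromatin remodelling complex, at percentile 99.7 in Tnm2 with UNC0638. For Krt42 it lay in the non-coding gene Gm14206, also at percentile 99.7. Krt82 shared the peak by Krt84 (percentile 94.9 in Tnm2 with DMSO), Krt15 that of Krt19 (percentile 93.9 in CK1750 with UNC0638) and Krt28 that of Krt10 (percentile 85.8 in CK1750 with DMSO). Krt9 had a peak between it and Krt19 (percentile 72.2 in CK1750 with DMSO), absent in Tnm2 with UNC0638. The hair keratins Krt35 and Krt36 and the mucosal keratin Krt13 shared a peak between Krt36 and Krt13 (percentile 64.8 in CK1750 with UNC0638), present in all lists, and Krt31 shared one with Krt32 (percentile 63.2). Windows of neighbouring keratins overlap, and a single peak counted for up to 4 of them.

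The distinct peaks within 20 kb of a keratin numbered 62, 62, 64 and 45 in the order of lists above, and 58, 58, 61 and 41 of these had a keratin as the nearest protein-coding start. The rest were nearest to Smarce1, Eif4b, Gm49425 or 6030408B16Rik. Of the 233 peak intervals, 0 had a near-identical copy elsewhere on the assembled chromosomes (alignments of 80% or more of the interval, with 95% identity as the minimum). The chromosome 15 cluster (0.685 Mb) was dense in peaks, with 55.5, 51.1, 54.0 and 40.9 peaks per Mb beside 13.5, 13.6, 16.7 and 10.3 per Mb of the whole chromosome. On chromosome 11 (1.04 Mb) the densities were 18.3, 22.2, 26.0 and 12.5 per Mb beside 16.8, 15.4, 19.6 and 12.5. Both clusters had long stretches with no peak in any list. They included 92.6 kb with Krt5, 83.5 kb with Krt72, Krt73, Krt2 and Krt1, 153 kb from Krt222 to Krt28 and 101 kb with Krt9, Krt14, Krt16, Krt17 and Krt42. The longest, 162 kb on chromosome 11, held 7 keratin-associated protein genes, the partners of hair keratins. Of the 23 such genes between the keratins, 3, 2, 4 and 3 had a start-site peak, beside the 50, 49.1, 49.4 and 41.3% of all protein-coding genes given above.

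The effect of UNC0638 on keratins was examined within each line. At start sites in CK1750, 1 of 49 keratins had a peak with DMSO only (Krt7, beside 2.42% of all protein-coding genes) and 1 with UNC0638 only (Krt23, beside 1.51%). In Tnm2, 0 keratins had a start-site peak with DMSO only, beside 8.74% of all genes. Only 10 of 49 keratins had a start-site peak there with DMSO that could be lost, beside 49.4% of all genes. With UNC0638 only, 1 keratin had one (Krt84, beside 0.597%). Within 20 kb in CK1750, Krt39 and Krt7 had a peak with DMSO only (2 of 49, beside 2.70%), and Krt20, Krt90, Krt1 and Krt77 with UNC0638 only (4 of 49, beside 1.23%). In Tnm2, Krt32, Krt9, Krt5, Krt71, Krt72 and Krt76 had one with DMSO only (6 of 49, beside 8.05%), and Krt34 and Krt75 with UNC0638 only (2 of 49, beside 0.574%). Krt1 and Krt77 rest on a single shared peak (score 53.8), and Krt5 and Krt71 on the same 2 peaks, so these are not separate observations. No p-value can be given for any of these counts, since each condition is 1 list.

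Counted by peaks, 8 of 62 peaks near keratins in CK1750 with DMSO had no overlapping peak with UNC0638 (12.9%, interval 6.69 to 23.4%), beside 21.8% of all peaks in that list. Of the 62 peaks with UNC0638, 16 had no overlapping DMSO peak (25.8%, interval 16.6 to 37.9%), beside 19.6%. In Tnm2, 28 of 64 DMSO peaks had none with UNC0638 (43.8%, interval 32.3 to 55.9%), beside 43.1%, and 5 of 45 UNC0638 peaks had none with DMSO (11.1%, interval 4.84 to 23.5%), beside 8.81%. Each interval holds the share of all peaks, but it covers counting error only and treats neighbouring peaks as separate. No test was made. The peaks without a counterpart were weak ones: their median scores were 69.5, 69.8, 82.1 and 59.5, beside 162, 320, 553 and 232 for those with one, and the highest were 150.12, 133.72, 222.98 and 70.08.

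The lines were compared within each treatment. With DMSO, 0 keratins had a start-site peak in CK1750 only, beside 3.74% of all protein-coding genes, and 1 in Tnm2 only (Krt23, beside 3.13%). With UNC0638, 0 had one in CK1750 only, beside 9.16%, and 2 in Tnm2 only (Krt7 and Krt84, beside 1.33%). Only 9 of 49 keratins had a start-site peak in each CK1750 list, beside 50% and 49.1% of all protein-coding genes. Within 20 kb with DMSO, Krt39, Krt34, Krt88, Krt81 and Krt86 had a peak in CK1750 only (5 of 49, beside 3.26%) and Krt90, Krt5 and Krt71 in Tnm2 only (3 of 49, beside 3.45%). With UNC0638 the numbers were 10 in CK1750 only, beside 7.32%, and 2 in Tnm2 only (Krt7 and Krt75, beside 1.5%). The 10 were Krt20, Krt32, Krt9, Krt88, Krt81, Krt86, Krt72, Krt1, Krt77 and Krt76, and they included the hair keratins Krt32, Krt81 and Krt86, the inner root sheath keratin Krt72 and the epidermal keratins Krt9, Krt1 and Krt77. Krt88, Krt81 and Krt86 share a single peak, and so do Krt1 and Krt77 (score 53.8, close to the cutoff). Krt5 and Krt71 share the same 2 peaks. The genes within each of these sets are therefore not separate observations. The Tnm2 UNC0638 list was the shortest of the 4.

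The partners of keratin filaments were examined in the same way. Of 12 desmosome and hemidesmosome genes, 6, 9, 7 and 6 had a start-site peak in the order of lists above, beside 50, 49.1, 49.4 and 41.3% of all protein-coding genes, and no test of the difference was made. Jup (plakoglobin), Pkp2, Plec (plectin), Dst, Itgb4 and Itga6 had one in all 4. Dsp (desmoplakin, score 95.43), Pkp1 (score 52.64) and Pkp3 (score 81.83) had one only in CK1750 with UNC0638, each at a score under 100, and Evpl only in Tnm2 with DMSO (score 72.24). Ppl and Col17a1 had none. Of 15 other intermediate filament genes, 4, 3, 4 and 3 had one beside the same shares of all genes, with the mesenchymal filament gene Vim and the lamin gene Lmna in all lists. The Vim start-site peaks had scores of 3006.11, 2257.63, 1377.2 and 618.11, which cannot be compared between lists because scores grow with depth. Among the keratins with a letter in the symbol, the hair keratin Krt33a had a start-site peak in all 4 lists, and Krt6a, Krt6b and Krt33b in none.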

How the data were processed

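The authors immunoprecipitated and sequenced H3K27ac chromatin, aligned the reads to mm10 using bowtie2 and called peaks by MACS 1.4.2, with 1e-05 as the largest P value allowed and other settings at their defaults. SAMtools is named in the submitters' processing notes, its version is not given in the sources used here, and neither is the control of the peak calls. The deposited lists hold chromosome, start, end and a score per peak (10 times the negative log10 of the P value), 1 merged list per group as the labels assign them. The sources do not say which libraries were merged, and the 21 H3K9me2 and input samples were not analysed here.

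Starts were converted to 1-based positions, and 0 peaks ended beyond a chromosome. Genes came from GENCODE release M 21 (GRCm38). A gene had a start-site peak when a peak overlapped 2.5 kb on either side of any annotated start by at least 1 bp, and a nearby peak when a peak overlapped the gene extended by 20 kb. Peaks of different lists were matched at 1 bp of overlap. Shares carry Wilson 95% intervals. No test between groups was made, since each group has 1 list and depth is unknown.

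The keratin genes, the partner, intermediate filament and marker lists and the alternatives were chosen with earlier results of these data known. Named genes were Krt7, Krt8, Krt18 and Krt19, every keratin with a start-site peak in at least 1 list, the 10 highest-ranking of those with a nearby peak only, and Krt5, Krt14, Krt17, Krt1 and Krt10. Non-keratin genes were named where nearest to a peak. Genes that changed presence are also named, after their values were seen. Motifs were chosen after the data were seen.

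Promoter sequences came from RefSeq (GRCm38.p6), with no entry for 14 keratins, among them Krt19, Krt80 and Krt4. Near-identical copies were sought with minimap2 2.31. The overlap step was tested on simulated lists, in which the state of 900 of 900 genes (peak in both lists, lost, gained or none) was recovered. Python 3.11.15, numpy 2.4.6, scipy 1.17.1 and matplotlib 3.10.9 were used.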

Additional observations from a re-analysis of the deposited data

Results flagged for a closer look

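For 20 measures taken over the keratins, the difference between UNC0638 and DMSO was compared between the lines, and in 10 of them it had opposite signs in CK1750 and Tnm2. Each line gives a single difference of 1 list against 1 list, so none of these contrasts was tested. The Tnm2 list with UNC0638 had the fewest peaks of all 4, and its part in these differences was not tested.

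Around the simple keratins, the length covered by peaks within 20 kb was 6950 bp greater with UNC0638 in CK1750, and in Tnm2 it differed by -7858 bp. Around the other keratins, the number of genes with a peak differed by 3 in CK1750 and -4 in Tnm2, the number of distinct peaks by 3 and -21, and the covered length by 21740 and -16708 bp. In the chromosome 11 cluster the number of peaks differed by 4 in CK1750 and -14 in Tnm2, and the covered length by 7315 and -8862 bp. In the chromosome 15 cluster the covered length differed by 16249 and -10726 bp. The whole lists covered 28.5 Mb with DMSO and 31.6 Mb with UNC0638 in CK1750, and 31.8 and 22.9 Mb in Tnm2. The covered lengths within 20 kb and in the clusters thus differed in the same directions as those of the whole lists. At start sites not all did so. There the covered length of the simple keratins differed by -1012 bp in CK1750 and -3278 bp in Tnm2. That of the other keratins differed by 5823 and 4755 bp. The number of peaks in the whole list was lower with UNC0638 in both lines (27367 and 24601 in CK1750, 30641 and 18794 in Tnm2).

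For single genes, the number of peaks within 20 kb of Krt8 differed by -3 in CK1750 and 3 in Tnm2, that of Krt18 by -2 and 1, and that of Krt19 by 3 and -7. At Krt8 in Tnm2, the larger number with UNC0638 includes the shorter peaks into which the wide DMSO peak was divided, and the covered length there was 17866 bp with DMSO and 16249 bp with UNC0638.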

How the results depend on the processing

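Each of 51 results was recomputed under the alternatives that applied to it, which gave 297 values. Of these, 229 stayed within 1.5 times the reported value and 68 did not. All 51 are counts, so none could change sign. Each list pools its libraries, so leaving out a replicate could not be done. No paired analysis was possible because the lists carry no replicate numbers. Most values that moved were small counts. Genes with a start-site peak (9, 9, 10 and 11 in CK1750 with DMSO, CK1750 with UNC0638, Tnm2 with DMSO and Tnm2 with UNC0638) kept within 1.5 times under the other alternatives. The exception was one added after seeing the data, in which a peak had to cover the most upstream protein-coding start: 6 in Tnm2 with UNC0638, made up of 2 simple and 4 other keratins, with start-site losses of 2 in CK1750 and 3 in Tnm2 and gains of 0 in Tnm2.

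At a score of at least 100, start-site losses were 0 in CK1750 and 2 in Tnm2. Keratins with a start-site peak in Tnm2 only were 2 with DMSO and 1 with UNC0638, and in CK1750 only 1 with UNC0638. Within 20 kb, losses in CK1750 and gains in Tnm2 were 0, keratins in CK1750 only with DMSO were 3 and in Tnm2 only with UNC0638 0. The peaks of the chromosome 11 cluster were then 11 (CK1750 with DMSO), 15 (Tnm2 with DMSO) and 4 (Tnm2 with UNC0638), and those of chromosome 15 were 24 and 22 in CK1750 with DMSO and UNC0638 and 24 in Tnm2 with DMSO. With each list reduced to its 18794 highest-scoring peaks, CK1750 lost 0 keratins at start sites and 0 within 20 kb and gained 7 within 20 kb, where Tnm2 lost 2. Keratins in CK1750 only with DMSO were 3 within 20 kb and in Tnm2 only 2 at start sites, and the clusters held 11 and 15 peaks on chromosome 11 (CK1750 and Tnm2 with DMSO) and 22 on chromosome 15 (Tnm2 with DMSO). The 6 losses in Tnm2 within 20 kb were thus 2 with equal numbers of peaks, and 6 at a score of at least 100.

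With the peak's midpoint in the window, Tnm2 lost 1 keratin and gained 0 at start sites, and 0 were in Tnm2 only with UNC0638. With starts of protein-coding transcripts only, Tnm2 gained 0 and 1 keratin was in Tnm2 only with UNC0638. With 1 kb, Tnm2 lost 2 and gained 0, 1 keratin was in CK1750 only and 0 in Tnm2 only with UNC0638. With 5 kb, CK1750 lost 2 and Tnm2 lost 1 and gained 0, other keratins in CK1750 with DMSO were 9, keratins in CK1750 only were 2 with DMSO and 1 with UNC0638, and in Tnm2 only 2 and 1. Around genes, a window of 10 kb gave 3 lost in Tnm2. With 50 kb, 46, 47 and 41 keratins had a peak (CK1750 with DMSO, Tnm2 with DMSO, Tnm2 with UNC0638), losses in CK1750 and gains in Tnm2 were 0 and gains in CK1750 1. In CK1750 only there were then 0 with DMSO and 6 with UNC0638, and in Tnm2 only 1 and 0. With peaks within 1 kb merged, the chromosome 15 cluster held 21 peaks in CK1750 with UNC0638 and 17 in Tnm2 with UNC0638. Causes were not tested beyond what each setting removes.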
